A study of Mus musculus with 9 samples.

Results

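The genes described here are the translation initiation and elongation factor genes of the mouse, chosen by name from the deposited expression table: every gene whose name begins with Eif or Eef followed by a digit and whose listed transcript types include protein_coding. The eIF2 kinases (Eif2ak) and the 4E-binding proteins (Eif4ebp) were left out of the set and are described apart. The rule gave 64 genes of the 55385 in the table, of which 21804 list a protein-coding transcript. Only 13 of the 64 list protein_coding as their sole transcript type, so the rule was read as any gene with at least 1 such transcript. All 64 were found in the GENCODE M21 annotation as protein-coding genes. By role, 48 were counted as initiation factors, 6 were subunits of the elongation factors eEF1 and eEF2, 8 were partners or modifying enzymes of those factors, and 2 encoded eIF5A, which acts mainly in elongation in spite of its name. The 48 include 8 other genes with an Eif name, such as Eif4a3, Eif4enif1 and Eif6.

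The study measured RNA by sequencing in the mouse podocyte line MCP5, of wild-type genotype, in 3 groups of 3 libraries. Control cells were left untreated, high glucose cells received glucose at 50 mmol/L, and the remaining cells received advanced glycation end products (AGEs, proteins modified by sugars) at 400 µg/mL. The sources used here give no treatment time, no osmotic control and no glucose level for the control medium. Nothing in the labels says whether the 3 libraries of a group came from separate cultures, so the p-values measure only the spread from library to library, which could be technical.

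Protein synthesis starts when eIF2, carrying GTP and the initiator tRNA, joins the small ribosomal subunit together with eIF1, eIF1A, eIF3 and eIF5. The eIF4 proteins bind the capped messenger and unwind it for scanning, eIF5 and eIF5B trigger GTP hydrolysis and subunit joining, and eIF2B recharges eIF2 with GTP. In elongation, eEF1A brings each aminoacyl-tRNA to the ribosome, the eEF1B subunits recharge eEF1A, and eEF2 moves the ribosome by a codon. Podocytes are the filtering epithelial cells of the kidney glomerulus, and high glucose and AGEs are used on them in culture to mimic diabetic exposure.

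The libraries held between 46284878 and 77242281 counts. Principal components were taken from the log2 CPM values of the most variable genes only. The first (37.0% of the variance of those genes) set the 3 high glucose libraries apart from the other 6. The second (14.0%) spread the AGEs libraries from -48.5 for AGEs 1 to 58.9 for AGEs 3. The podocyte markers Actn4, Cd2ap, Kirrel, Podxl, Nphs1 and Synpo had counts in every library. Wt1 had 11 counts in all, Ptpro 5 and Tcf21 4. Markers of parietal epithelial cells were present at a summed level of 1056 to 1104 CPM in control, 1966 to 2205 in high glucose and 1021 to 1246 in AGEs, and 4 of the 8 were called higher in high glucose and 1 lower. The 4 tubular markers that could be tested (Aqp1, Cdh16, Lrp2, Cubn) were all called higher in high glucose, with a summed level of 202 to 216 CPM in control and 667 to 800 in high glucose, while Slc34a1, Umod and Aqp2 were at 0. By the test described below, 19.6% of all genes tested were called higher in high glucose and 19.7% lower. Summed endothelial markers lay between 5.48 and 5.85 CPM in control and between 12.4 and 15.1 in high glucose. Mesangial and fibroblast markers lay between 37.9 and 41.0 in control and between 53.7 and 58.4 in high glucose, and leukocyte markers between 77.7 and 87.1 and between 133 and 144. Those marker levels moved with the same libraries as the results below, and their part in those results was not tested.

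Of the 64 genes, 61 passed the filter on low counts. The other 3 were close to absent: Eif4e1b, an oocyte form of the cap-binding protein, had 0 counts in all libraries, Eef1a2, the muscle and nerve form of eEF1A, had 12 counts in all, and Eif4e3 had 41. Differences were tested with edgeR's quasi-likelihood test, and a gene was called when its Benjamini-Hochberg adjusted p over all 17680 genes tested was under 0.05. Levels are given as CPM, counts scaled to a common library size, with TMM factors, for comparing libraries, and as FPKM, which accounts for gene length, for comparing genes.

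In control cells the elongation factor genes Eef1a1, Eef2 and Eef1g led the set, while Eef1b2 ranked 8 and Eef1d 34 among the members. Eef1a1, which delivers aminoacyl-tRNA, had 4165 ± 63.1 FPKM (SD, n = 3) and ranked 3 or 4 among all genes in each control library. Eef2, the translocation factor, followed at 1722 ± 122 FPKM, and Eef1g, a scaffold subunit of the exchange complex, at 505 ± 46.4. Eif5a, counted apart from both classes, was next at 434 ± 48.2. The most abundant initiation factor genes per length were Eif1 at 413 ± 50.7 FPKM, Eif3c at 386 ± 8.55 and Eif3h at 346 ± 16.7, and Eif1 and Eif3c did not differ beyond the spread of Eif1. The lowest of the tested genes were Eif4a3l2 at 0.358 ± 0.06 and Eif4a3l1 at 1.13 ± 0.549 FPKM, both copies of the helicase gene Eif4a3.

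The counts in high glucose shifted away from the elongation factors. Summed over their 6 genes, the elongation factor subunits took 1.998%, 1.976% and 2.123% of all counts in the 3 control libraries and 1.05%, 1.11% and 1.04% in the high glucose libraries. The 48 initiation factor genes took 1.39%, 1.34% and 1.33% in control and 1.10%, 1.12% and 1.12% in high glucose. The ranges did not overlap for either class. In RNA from whole cultures, a change in the make-up of the cells and a change in RNA per cell cannot be told apart. The ratio of elongation to initiation counts within a library, which does not depend on library scaling, was 1.50 ± 0.08 in control (SD, n = 3) and 0.957 ± 0.030 in high glucose. With AGEs it was 1.34 ± 0.11, from 1.22 in AGEs 3 to 1.41 in AGEs 2, just below the control range of 1.44 to 1.60. Eef1a1 and Eef2 alone made up 86.2% to 88.9% of the elongation subunit counts in the 9 libraries, so this ratio follows these 2 genes. The share was the outcome over a chosen set, and no p was computed for it.

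**Figure D1:**
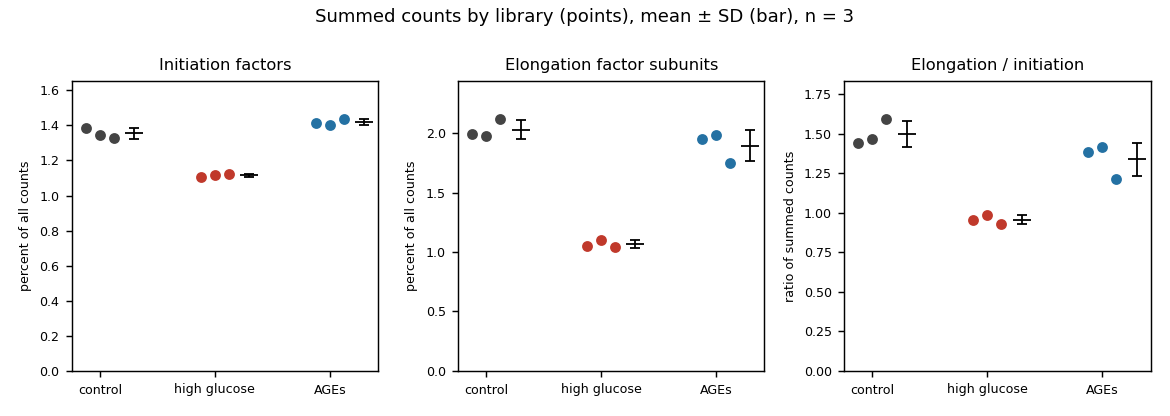
Summed counts of the 48 initiation factor genes and the 6 elongation factor subunit genes as a percent of all counts, and their ratio, in each of the 9 libraries (points) with mean and SD (bars, n = 3 per group). The high glucose libraries lie below all control and AGEs libraries in each panel, and their ratio is 0.957 ± 0.030 against 1.50 ± 0.08 in control.

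The comparison of high glucose with control asked which genes differed in the cells given glucose. Without an osmotic control, an effect of glucose itself cannot be told apart from one of osmolarity. Among the 61 tested members, 42 were called lower and 2 higher, with a median log2 change of -0.44. Over all genes tested the same call was made for 39.3% in either direction, 19.7% lower and 19.6% higher, with a median of 0.03. The elongation factor subunits were lower in 5 of 5 tested genes, with a median log2 change of -1.04. Their partners and modifying enzymes were lower in 6 of 8, with a median of -0.68. The initiation factors were lower in 31 of 46 and higher in 2, with a median of -0.41, and neither eIF5A gene was called. Those 46 include the 8 other genes with an Eif name, of which 3 were lower and 0 higher, with a median of -0.12. The elongation partners were kept apart from their class, so the 2 classes were not drawn alike. The high glucose libraries lay below all controls in CPM for 44 of the 61 members and above them for 4, where 25.8% and 28.3% of all genes did so (54.1% either way). Limma on log2(FPKM + 1), whose values are scaled by the deposited FPKM and not by TMM, called 33 members lower and 6 higher. On that scale 68.6% of all called genes were higher in high glucose, against 49.9% with edgeR.

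**Figure D2:**
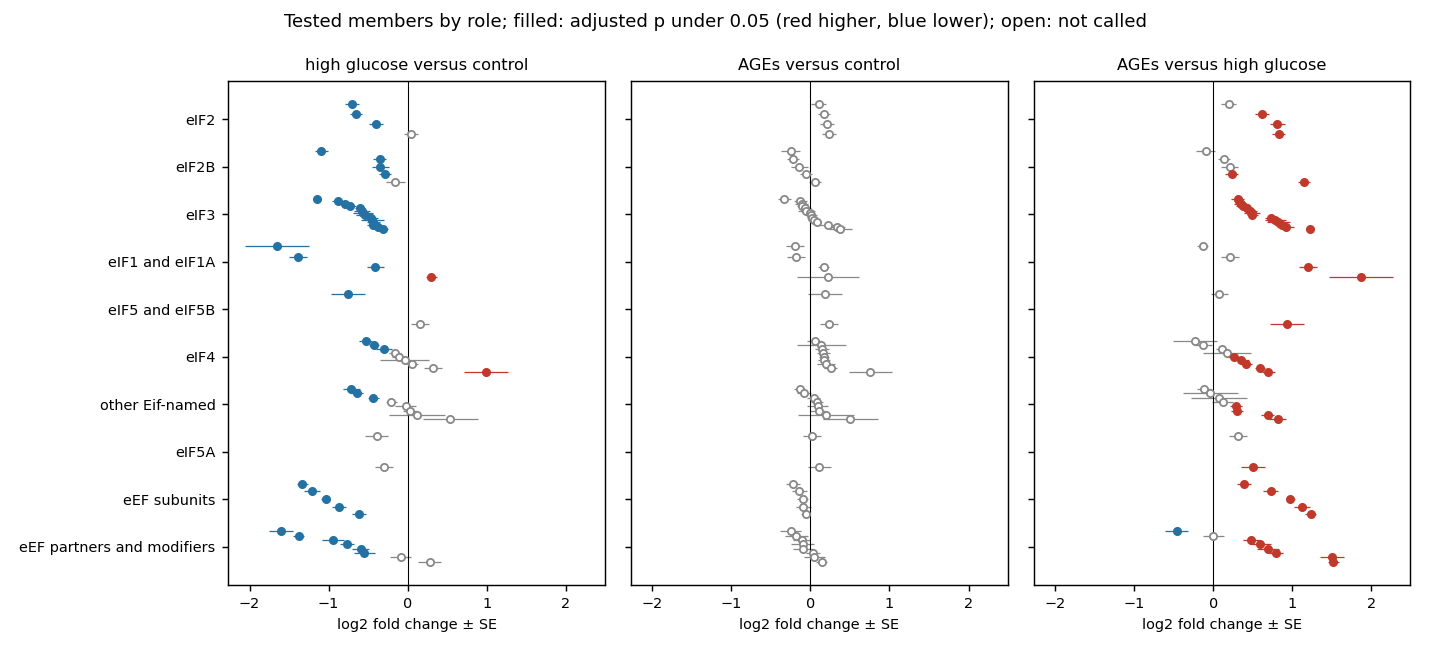
Log2 fold change with standard error (x axis) of the 61 tested members, grouped by role (y axis), in the 3 comparisons; filled points have an adjusted p under 0.05 (red higher, blue lower). In high glucose the eIF3 and elongation factor subunit genes all lie left of 0, in AGEs versus control no point is filled, and AGEs versus high glucose is drawn from the same libraries as the other panels.

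Among the elongation factors, Eef1a1 (chromosome 9, 78478449 to 78489151, minus strand, GRCm38) had 12005, 11743 and 12254 CPM in the control libraries, 5962, 5972 and 5627 under high glucose and 11820, 11966 and 10746 with AGEs. All high glucose values lay below every other library, and the log2 change against control was -1.04 ± 0.06 (SE, adjusted p = 3.3e-06), 2.05-fold lower. Its rank among all genes by FPKM went from 3 or 4 in control to 11 or 12 in high glucose, where it had 2294 ± 66.7 FPKM.

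Eef2 (chromosome 10, 81176631 to 81182498, plus strand) had 6361, 6302 and 7190 CPM in control, 2554, 2726 and 2612 under high glucose, and with AGEs 6218, 6468 and 5848. The high glucose libraries were again the 3 lowest, with a log2 change of -1.33 ± 0.07 (SE, adjusted p = 2.1e-06), 2.52-fold lower. The count ratio of Eef1a1 to Eef2 was 1.82 ± 0.10 in control and 2.23 ± 0.10 in high glucose (SD, n = 3), so Eef2 lost more of its counts than Eef1a1 did.

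The eEF1B genes, whose products recharge eEF1A with GTP, were lower as well. Eef1b2, the catalytic exchange subunit, had 724, 671 and 770 CPM in control and 321, 332 and 282 in high glucose, a log2 change of -1.21 ± 0.10 (SE, adjusted p = 2.2e-05). Eef1g had 1492, 1383 and 1676 CPM in control and 819, 914 and 759 in high glucose, a log2 change of -0.87 ± 0.09 (SE, adjusted p = 8.8e-05). Eef1d, the other exchange subunit, changed least of the 5, from 236, 203 and 240 CPM to 160, 143 and 141, a log2 change of -0.61 ± 0.09 (SE, adjusted p = 0.0005). In none of these genes did the control and high glucose libraries overlap.

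**Figure D3:**
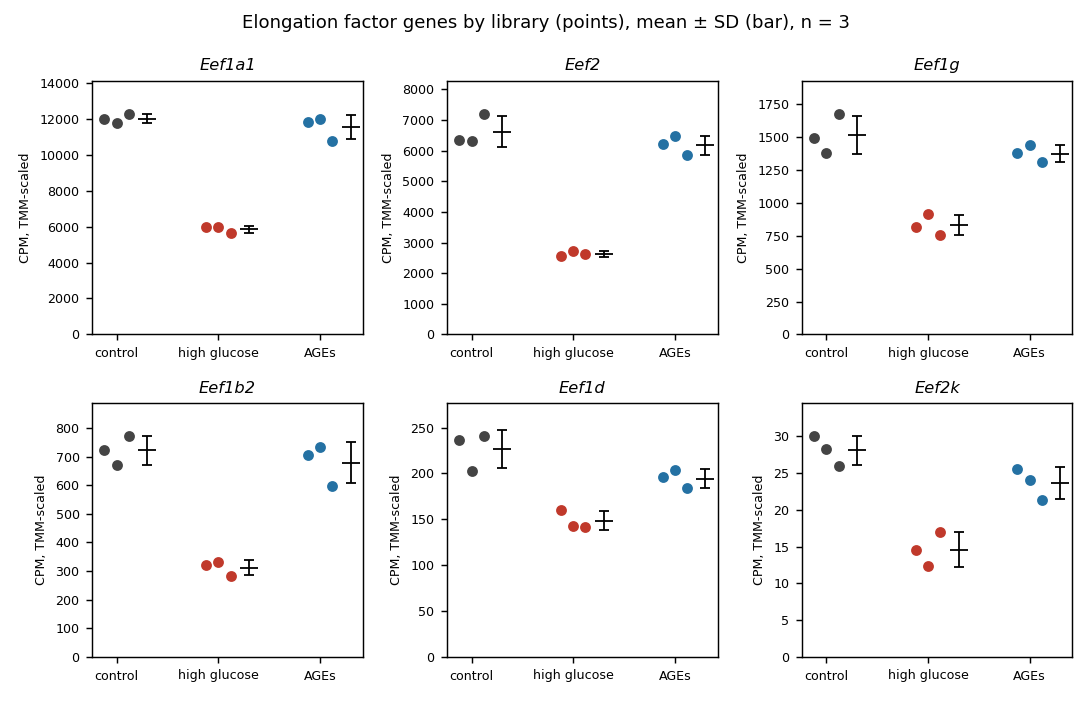
CPM after TMM scaling (y axes, each from 0) of the 5 tested elongation factor subunit genes and the eEF2 kinase gene Eef2k in each library (points) with mean and SD (bars, n = 3). In every panel the 3 high glucose libraries are the lowest, for example 2554 to 2726 CPM against 6302 to 7190 in control for Eef2.

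The partners and modifiers followed the subunits in part. Eef1e1, which encodes an auxiliary protein of the multi-aminoacyl-tRNA synthetase complex, had 84.9, 77.5 and 81.0 CPM in control, 32.5, 30.7 and 30.4 under high glucose, and with AGEs 90.2, 86.9 and 91.3. It fell in high glucose by 1.38 ± 0.07 on the log2 scale (SE, adjusted p = 1.9e-06). Eef2k, the kinase that inhibits eEF2 by phosphorylation, had 30.0, 28.3 and 26.0 CPM in control and 14.5, 12.3 and 17.0 in high glucose, and fell by 0.94 ± 0.14 (SE, adjusted p = 0.00052). The messengers of eEF2 and of its inhibitory kinase were thus both lower.

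Of the methyltransferases that act on eEF1A or eEF2, 4 of 6 were lower. Eef1aknmt, for which no overlapping gene with counts was found, changed by -0.76 on the log2 scale (edgeR adjusted p = 0.00014). Its call held in all 14 alternatives. Eef1akmt3 fell from 9.23, 8.86 and 9.74 CPM to 2.76, 2.80 and 3.60, the second largest decrease in the set at -1.60 ± 0.15 (SE, adjusted p = 4.6e-05). It overlaps Mettl1 on the opposite strand, a gene with more counts (39117 against 4200 over all libraries). Mettl1 was itself lower by -1.36 on the log2 scale. Reads of the pair cannot be told apart where the counting does not use strand, and whether it does is not given in the sources used here. The same limit holds for Eef1akmt4 (-0.55) and Eef2kmt (-0.59). They overlap Alg3 (-0.75) and Alg1 (-0.33) in turn, each with more counts and on the opposite strand. Eef1akmt2 (-0.09) and Eef1akmt1 (0.28) were not called by edgeR, and limma on log2(FPKM + 1) called Eef1akmt1 higher (0.44, adjusted p = 0.027). Eef1akmt2 overlaps Fgfr2 on the same strand, which rose by 2.24 on the log2 scale.

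The largest initiation complex changed as a group. eIF3, the scaffold on the small subunit that holds the other factors and contacts eIF4G, was lower in 14 of 14 subunit genes, with log2 changes from -1.15 to -0.31 and a median of -0.55. With limma on log2(FPKM + 1) 12 of the 14 were called, with a median of -0.35, and none was called higher. Eif3c (chromosome 7, 126546455 to 126566411, minus strand), a core subunit, decreased most, from 1596, 1566 and 1531 CPM in control to 714, 687 and 718 in high glucose (log2 change -1.15 ± 0.05, SE, adjusted p = 8.9e-07). The next largest decreases were in Eif3e (-0.88 ± 0.07, SE) and Eif3f (-0.80 ± 0.08), and the smallest were in Eif3l (-0.31 ± 0.06), Eif3b (-0.38 ± 0.08) and Eif3g (-0.44 ± 0.08). Eif3l went from 576, 560 and 594 CPM to 478, 476 and 445, so even there the groups did not overlap.

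Eif3c and Eif3l therefore differed in size of change though their proteins sit in the same complex: per length, Eif3c went from 386 ± 8.55 to 197 ± 4.7 FPKM and Eif3l from 137 ± 3.24 to 125 ± 4.21 (SD, n = 3). The loosely bound eIF3j subunit has 2 near-identical genes in the mouse, Eif3j1 and Eif3j2, between which reads may be split, and both were lower (-0.56 and -0.45). The call for Eif3j2 was lost in 5 of the 6 fits that left out a library, with adjusted p up to 0.11.

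**Figure D4:**
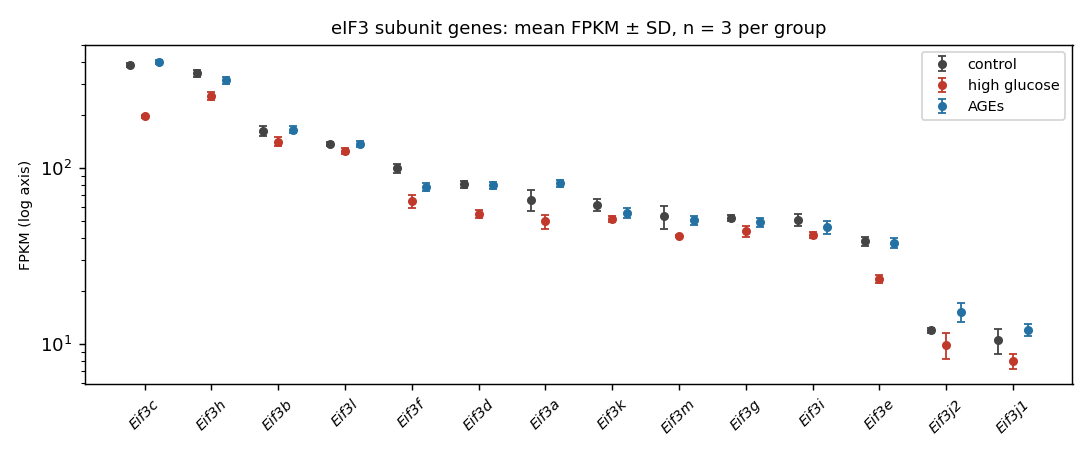
Mean FPKM and SD (log y axis, n = 3 per group) of the 14 eIF3 subunit genes, ordered by their level in control. The high glucose mean is the lowest of the 3 groups for every subunit, with the widest gap at Eif3c (386 in control, 197 in high glucose).

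For eIF2, the GTP-binding carrier of the initiator tRNA, 3 of 4 genes were lower. Eif2s1, the alpha subunit that is phosphorylated under stress, went from 176, 173 and 147 CPM to 135, 118 and 122 (-0.41 ± 0.09, SE, adjusted p = 0.0056), a call that limma on log2(FPKM + 1) did not make (-0.22, adjusted p = 0.055). Eif2s2, the beta subunit, went from 483, 483 and 402 to 303, 287 and 281 (-0.65 ± 0.08, adjusted p = 0.0002). The gamma subunit has an X-linked gene, Eif2s3x, and a Y-linked copy, Eif2s3y.

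Eif2s3x went from 280, 280 and 235 CPM in control to 167, 149 and 172 in high glucose (-0.70 ± 0.09, SE, adjusted p = 0.00034). Eif2s3y had 46.5, 48.0 and 40.7 CPM in control and 48.0, 44.9 and 46.3 in high glucose, with overlapping groups (0.04 ± 0.09, adjusted p = 0.76). The count ratio of Eif2s3x to Eif2s3y within a library was 5.87 ± 0.12 in control, 3.50 ± 0.20 in high glucose and 5.38 ± 0.30 with AGEs (SD, n = 3). The X-linked copy thus lost counts relative to its Y-linked copy, in all 3 high glucose libraries (3.48, 3.32 and 3.72). The proteins of this pair are close homologues, and reads of shared stretches may have been divided between them.

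For eIF2B, the exchange factor that recharges eIF2, 4 of 5 genes were lower. The gamma subunit gene Eif2b3 stood apart from the other subunits. It went from 75.0, 70.1 and 67.7 CPM in control to 32.6, 35.4 and 31.8 in high glucose and had 72.1, 77.1 and 72.0 with AGEs (-1.09 ± 0.08 for high glucose, SE, adjusted p = 1.1e-05). Eif2b1 (-0.36), Eif2b2 (-0.35) and Eif2b5 (-0.29) fell less, and limma on log2(FPKM + 1) called none of these 3. With control 3, high glucose 1 or high glucose 3 left out in turn, 2 of the 5 eIF2B genes were called lower. With the replicate block it was 3 of 5. Eif2b4 was not called (-0.15 ± 0.13, adjusted p = 0.38). It overlaps Snx17 on the opposite strand (72646 counts against 28971), which was not called either (0.06), and reads may be shared.

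Among the factors of scanning and start codon choice, 3 were lower and 1 higher. Eif1, which keeps the scanning complex open, had 1091, 853 and 1063 CPM in control, 412, 391 and 350 under high glucose and 943, 918 and 787 with AGEs (-1.38 ± 0.11 for high glucose, SE, adjusted p = 2.3e-05). Its close homologue Eif1b fell by 0.41 ± 0.11 (SE, adjusted p = 0.017) from a control level of 25.3 to 29.2 CPM. The call for Eif1b was lost with limma on log2(FPKM + 1) (-0.22, adjusted p = 0.086), without control 3 (adjusted p = 0.057) and without high glucose 3 (0.06). Several processed pseudogenes resemble Eif1, and Eif1-ps1 was lower too (-1.59), with 5060 counts over all libraries.

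The eIF1A protein comes from a pair of near-identical genes that moved in opposite directions. Eif1a had 264, 253 and 88.4 CPM in control, 69.3, 59.6 and 64.3 under high glucose and 288, 285 and 134 with AGEs, the largest decrease in the set (-1.65 ± 0.40, SE, adjusted p = 0.0097). Control 3 and AGEs 3 stood well below the other libraries of their groups, and without control 3 the log2 change was -2.01. Eif1ax, the X-linked gene, had 118, 110 and 111 CPM in control and 143, 143 and 131 in high glucose (0.30 ± 0.06, adjusted p = 0.0051). The count ratio of Eif1a to Eif1ax was 2.24, 2.30 and 0.797 in the control libraries and 0.483, 0.416 and 0.490 in high glucose, without overlap of the groups. Eif1a had more counts than Eif1ax in control 1 and 2, and fewer in control 3 and in every high glucose library. How reads common to both were assigned is not given in the sources used here.

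The eIF4 genes were mixed. Of 9 tested, edgeR called 3 lower, 1 higher and 5 in neither direction, with a median of -0.11. The balance depended on the scale: limma on log2(FPKM + 1) called 2 lower and 3 higher, with a median of 0.02. Eif4a2, a form of the eIF4A helicase, went from 161, 156 and 138 CPM to 108, 96.5 and 110 (-0.53 ± 0.08, SE, adjusted p = 0.0007). It overlaps Rfc4 on the opposite strand (38051 counts against 86501), which was lower as well (-0.47), and reads may be shared. Eif4b, which stimulates the helicase, went from 746, 760 and 717 to 547, 547 and 565 (-0.42 ± 0.06, adjusted p = 0.00053). Eif4a1, the main helicase gene, was lower by a smaller amount (-0.30 ± 0.10, adjusted p = 0.037), a call that was lost in 4 of the 6 fits that left out a library, with adjusted p from 0.062 to 0.12. The pseudogene Eif4a-ps4, with 115047 counts against 541523 for Eif4a1, was lower by a like amount (-0.31), and reads may be shared between them.

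By edgeR the cap-binding and scaffold genes were not called. Eif4g1 had 596, 636 and 623 CPM in control and 608, 635 and 691 in high glucose (0.06 ± 0.07, SE, adjusted p = 0.58). Eif4g2, which encodes a related protein that does not bind the cap-binding protein, gave -0.16 ± 0.08 (adjusted p = 0.15) and Eif4g3 gave 0.32 ± 0.11 (adjusted p = 0.051). Eif4g3 was called higher in 6 of 14 alternatives, among them DESeq2 (adjusted p = 0.034) and limma on log2(FPKM + 1) (0.43, adjusted p = 0.011), and limma also called Eif4g1 higher (0.23, adjusted p = 0.031). Eif4e itself had 162, 155 and 131 CPM in control and 194, 67.4 and 176 in high glucose, so that high glucose 2 was low and the other libraries of the group were above all controls (-0.04 ± 0.31, adjusted p = 0.94). Without high glucose 2 the value for Eif4e was 0.31 (adjusted p = 0.051). Eif4e2 (-0.11), Eif4a3 (0.03), an exon junction helicase, and Eif4enif1 (-0.20), which carries eIF4E into the nucleus, were not called by edgeR. DESeq2 called Eif4enif1 lower (adjusted p = 0.041). Eif4enif1 overlaps Drg1 on the opposite strand (56244 counts against 50493), which was not called by edgeR (-0.13), and reads may be shared.

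Eif4h, a cofactor of the helicase, was the larger of the 2 rises. It had 479, 223 and 207 CPM in control, 597, 629 and 575 under high glucose and 460, 504 and 576 with AGEs. Control 1 stood near the treated libraries, and the groups did not overlap (0.99 ± 0.28 for high glucose, SE, adjusted p = 0.018). The call for Eif4h was lost without control 2 (adjusted p = 0.062), without control 3 (0.058) and without high glucose 2 (0.0501).

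**Figure D5:**
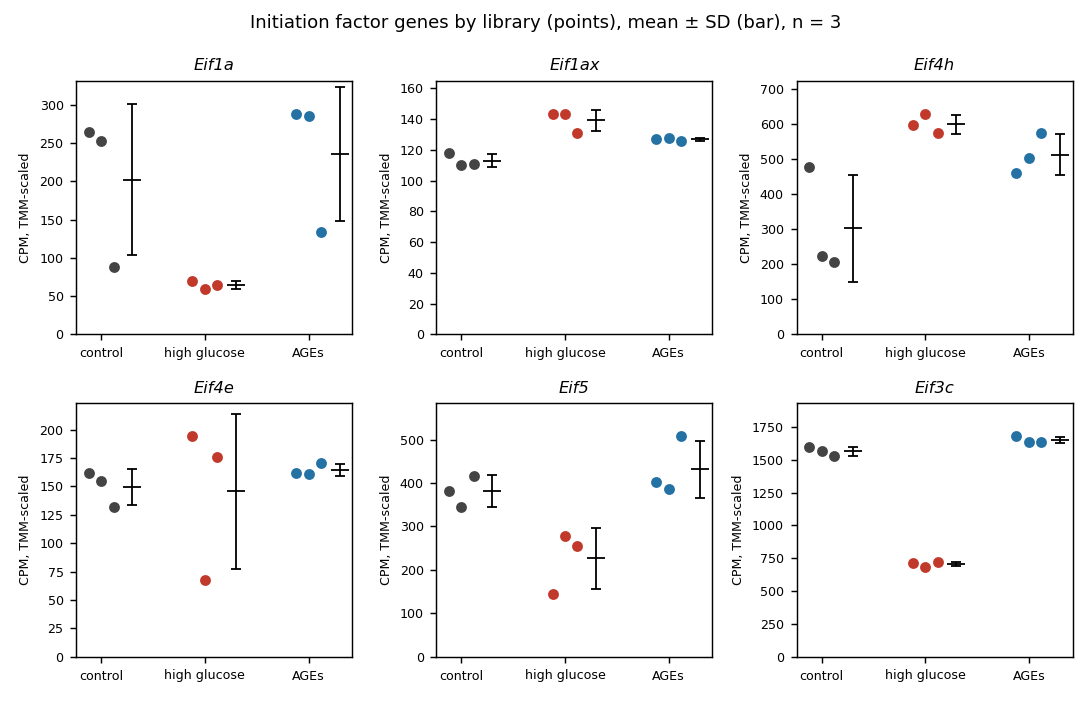
CPM after TMM scaling (y axes, each from 0) of 6 initiation factor genes in each library (points) with mean and SD (bars, n = 3). Eif3c and Eif1ax show tight groups, while 1 library stands away from the rest of its group in Eif1a (control 3, AGEs 3), Eif4h (control 1), Eif4e (high glucose 2) and Eif5 (high glucose 1).

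Eif5, the activator of GTP hydrolysis by eIF2, had 381, 344 and 417 CPM in control and 145, 278 and 255 in high glucose (-0.75 ± 0.22, SE, adjusted p = 0.021), with high glucose 1 the lowest. The call for Eif5 was lost without control 1 (adjusted p = 0.051) or control 3 (0.065). Eif5b, the subunit-joining factor, was not called by edgeR (0.15 ± 0.11, adjusted p = 0.3), while limma on log2(FPKM + 1) called Eif5b higher (0.32, adjusted p = 0.038) and did not call Eif5. Among the other genes with an Eif name, Eif2a (-0.71 ± 0.11, adjusted p = 0.00068), Eif1ad (-0.65 ± 0.08) and Eif2d (-0.43 ± 0.07) were lower, and Eif6, which keeps the large ribosomal subunit from joining too early, was not called (-0.03 ± 0.13). Eif2a overlaps Serp1 on the opposite strand (-0.70), and Eif1ad overlaps Banf1 (-0.98). Eif5a, whose product helps the ribosome through difficult stretches such as runs of proline, was not called (-0.29 ± 0.12, adjusted p = 0.07), nor was Eif5a2 (-0.39 ± 0.15, adjusted p = 0.062). DESeq2 called Eif5a2 lower (adjusted p = 0.036), and a fit of the 2 groups alone called Eif5a lower (adjusted p = 0.049).

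The genes that control these factors were read from lists of related genes, and they did not move one way. Of 14 genes of initiation control, 4 were higher (28.6%) and 5 lower (35.7%) in high glucose, with a median log2 change of -0.14, where 19.6% and 19.7% of all genes were called. Among the eIF2 kinases, Eif2ak2 (PKR) rose from 42.3, 48.4 and 33.7 CPM to 85.5, 80.6 and 91.2 (1.05 ± 0.12, SE, adjusted p = 0.00017), and Eif2ak4 (GCN2) rose by 0.38 ± 0.11 (adjusted p = 0.019). Eif2ak1 (HRI, -0.16, adjusted p = 0.0502) and Eif2ak3 (PERK, -0.11, adjusted p = 0.45) were not called. Ppp1r15a, the stress-induced phosphatase subunit that reverses eIF2 phosphorylation, had 474, 649 and 675 CPM in control and 54.9, 76.8 and 84.7 in high glucose, 8.31-fold lower (-3.06 ± 0.29, adjusted p = 4.8e-05). Ppp1r15b, its constitutive counterpart, was not called (0.03, adjusted p = 0.75).

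Other genes of initiation control that were lower were Dnajc3 (-1.43), a co-chaperone that inhibits eIF2 kinases, Atf4 (-1.45), the transcription factor translated when eIF2 is phosphorylated, and Impact (-0.89), an inhibitor of GCN2. Of the proteins that sequester eIF4E, Eif4ebp1 fell from 302, 278 and 341 CPM to 158, 166 and 157 (-0.94 ± 0.13, SE, adjusted p = 0.00043), Eif4ebp2 rose (0.40 ± 0.07, adjusted p = 0.0017), and Eif4ebp3 was near absent at under 1.3 CPM in each library and was not called. The messengers of eIF4E's binding proteins thus moved apart.

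Among 31 further regulators of translation, 6 were higher and 11 lower, with a median of -0.06. The 19.4% that were higher were at the level of all genes (19.6%), and 35.5% were lower where 19.7% of all genes were. Pabpc4 (-1.50 ± 0.08) and Pabpc1 (-0.85 ± 0.06, both SE), poly(A)-binding proteins that join the messenger's tail to eIF4G, were lower, with Pabpc1 at 1543, 1475 and 1550 CPM in control and 846, 876 and 812 in high glucose. Mknk2, a kinase of eIF4E, rose (1.22 ± 0.08, adjusted p = 5.5e-06), and its relative Mknk1 fell (-0.98 ± 0.12, adjusted p = 0.00021). Dhps (-0.85 ± 0.08) and Dohh (-0.55 ± 0.10), the enzymes that make the hypusine residue of eIF5A, were lower, whereas the eIF5A genes themselves were not called.

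Termination and recycling factors were lower in 4 of 7 tested genes (57.1%, against 19.7% of all genes) and higher in none, with a median of -0.30. The 4 were Gspt1 (-0.30), the GTPase release factor, Abce1 (-0.55), which splits the ribosome, Hbs1l (-0.52), a rescue factor, and Secisbp2 (-0.88), which allows selenocysteine to be read. Of 11 mitochondrial translation factors 3 were lower, among them the recycling factor Mrrf (-0.87), and 1 was higher, Gfm2 (0.96), with a median of -0.21. Those shares, 27.3% lower and 9.09% higher, stood against 19.7% and 19.6% of all genes, and limma on log2(FPKM + 1) called 1 lower and 1 higher.

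The comparison of AGEs with control asked the same question for glycated protein. None of the 61 members was called by edgeR, where 0.0848% of all genes were called (15 of 17680), 0.0509% higher and 0.0339% lower. At an unadjusted p under 0.05 there were 12 of the 61 members and 2190 of the 17680 genes, DESeq2 called 1 (Eif3f), and limma on log2(FPKM + 1) called 0. Eif3f had 329, 313 and 359 CPM in control and 265, 276 and 255 with AGEs, without overlap (-0.33 ± 0.08, SE, edgeR adjusted p = 0.25, DESeq2 adjusted p = 0.046). The members' median log2 change was 0.05, and their values ran from -0.33 to 0.76.

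By class, the 5 tested elongation factor subunits gave values from -0.22 to -0.06 with AGEs, all overlapping control, and the 46 initiation factors had a median of 0.09. Groups did not overlap for 13 members that were higher and 5 that were lower, of 61, where the same held for 9.47% and 9.73% of all genes (19.2% either way). The genes with the largest values with AGEs were Eif4h (0.76 ± 0.28, SE, adjusted p = 0.35) and Eif4a3l1 (0.50 ± 0.35, adjusted p = 0.59). Of the 14 alternatives, 1 called Eif4h, the fit without control 1, the library in which it was high (1.25, adjusted p = 0.008). None of the genes in the lists of initiation control, regulators, termination or mitochondrial factors was called.

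The comparison of AGEs with high glucose set the treatments against each other, and it uses the same high glucose libraries as the first comparison. AGEs were higher in 43 members and lower in 1, where 19.7% of all genes were called higher and 20.2% lower, 39.9% in all. The groups did not overlap for 46 members that were higher with AGEs and 2 that were lower, against 25.2% and 27.3% of all genes (52.5% either way). Of the 42 members lower in high glucose than in control, 39 were also higher with AGEs than with high glucose. The elongation factor subunits were higher with AGEs in 5 of 5 genes (median 0.98), the eIF3 genes in 14 of 14 (median 0.49) and the initiation factors in 31 of 46 (median 0.36). Limma on log2(FPKM + 1) called 31 members higher and 3 lower.

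The largest differences between AGEs and high glucose were in Eif1a (1.87 ± 0.41, SE, adjusted p = 0.0051), Eef1e1 (1.52 ± 0.07), Eef1akmt3 (1.50 ± 0.15), Eef2 (1.23 ± 0.07) and Eif3c (1.22 ± 0.05). Eef1akmt1, a methyltransferase of eEF1A, was the one member lower with AGEs, at 25.4, 31.1 and 24.1 CPM against 36.2, 41.7 and 33.0 in high glucose (-0.46 ± 0.15, adjusted p = 0.031). That call was lost in 4 of the 6 fits that left out a library, with adjusted p up to 0.11.

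Promoter windows from RefSeq (GRCm38.p6, from 250 bases before to 50 after an annotated start) were found for 49 of the 64 members, 63 windows in all. They were searched because so many of the genes fell together. On both strands, the E-box CACGTG, to which MYC and related factors bind, was in 25.4% of the members' windows, in 9.55% of the windows of all genes tested and in 7.15% of all windows. By gene, the E-box was in 14 of the 49 members (28.6%), in 11.3% of the genes tested and in 8.09% of all genes with a window. By class it was in 8 of 37 initiation factor genes and 1 of 4 elongation factor subunit genes. The element TGATGNAA, bound by C/EBP and ATF proteins, was in 3.17% of the members' windows, those of the 2 members Eif2s3x and Eef2k. It was in 2.30% of the windows of all genes tested and in 3.97% of all windows. A start with C followed by at least 4 pyrimidines is the form seen in messengers whose translation depends on mTOR. It was at 2.51% of all starts, at 2.44% of those of genes tested and at those of 2 members, Eif3f and Eif2s3x. Only the annotated start was read, which may not be where the messenger begins, and 15 members had no window. The search therefore cannot tell whether the other members, the elongation factor subunits among them, lack such a start.

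The stretches around these motifs are shown for 2 of the genes that fell and for the one that rose most, with motifs in capitals, on the gene's strand, 5′ to 3′. In Eef2 (chr10:81176576-81176631, plus strand, upstream of the first exon) the capitals mark the E-box. In Eif3f (chr7:108934335-108934434, plus strand, ending in the first exon) they mark the E-box and then the pyrimidine start. In Eif4h (chr5:134639409-134639517, minus strand) they mark the E-box.
Eef2: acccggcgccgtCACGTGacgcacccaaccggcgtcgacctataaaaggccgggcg
Eif3f: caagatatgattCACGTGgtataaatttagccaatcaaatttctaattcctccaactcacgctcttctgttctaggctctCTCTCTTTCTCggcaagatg
Eif4h: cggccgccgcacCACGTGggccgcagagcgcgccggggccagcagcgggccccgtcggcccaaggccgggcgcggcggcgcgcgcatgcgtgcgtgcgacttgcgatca

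Members with and without the E-box gave like values. Of the 14 tested members with it, 9 were lower in high glucose, 1 was higher and 4 were not called, with a median log2 change of -0.42. Of the 34 tested members with a window but without it, 24 were lower, 1 was higher and 9 were not called, with a median of -0.43. A motif in a window is a match of letters and not evidence of binding.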

How the data were processed

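RNA from 9 libraries of the MCP5 podocyte line was sequenced, 3 per group. The deposited table gives, for each gene and library, a whole-number read count and an FPKM value made by the authors; cutadapt 1.9, FastQC and GRCm38 are named in the submitters' processing notes, and the aligner, counter, strand setting and annotation were not given in the sources used here. In the deposited file the value 4 occurs 9186 times among the counts and the value 3 only 2519 times, so very low counts may not be plain read tallies. The deposited FPKM values are relative to length and library total, and a gene with 0 counts is listed at 0.0001 FPKM.

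Counts of all 9 libraries were fitted in 1 model with a mean per group (edgeR 4.0.16, R 4.3.3, TMM scaling, filterByExpr, quasi-likelihood test, two-sided, Benjamini-Hochberg adjustment over 17680 genes). TMM factors were 1.07, 1.10 and 1.10 in the high glucose libraries and ran from 0.935 to 0.974 in the control and AGEs libraries. A larger factor lowers all CPM values of its library, and the deposited FPKM values were not scaled by these factors. Alternatives were RLE size factors, DESeq2 1.42.0, other count filters, only the groups compared, a replicate block, limma 3.58.1 on log2(FPKM + 1) or log2(FPKM + 0.1), and leaving out each library in turn. The code was tested on simulated counts. Levels within a class were summed as percent of counts, computed from the deposited counts. Replicate libraries differed by 47.7 to 110 times the sampling noise (chi-square per degree of freedom), and each was counted as 1 replicate; this does not tell separate cultures from repeat preparations.

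The members and the lists of related genes were chosen with earlier results of these data known. Genes were named by a fixed rule: the elongation factor subunits, eIF2, eIF2B, eIF1, eIF4 and eIF5 genes with Eif2a, Eif2d, Eif6 and Eef2k, the 3 largest and 3 smallest changes within eIF3, the 5 largest changes each way among called members, up to 4 called genes per list, and the listed kinases and binding proteins. Eif1ad, Eif3j1, Eif3j2, Eif3h, Eif4a3l1, Eif4a3l2, Eif4e1b, Eef1akmt2, Eef1akmt4, Eef1aknmt, Eef2kmt, Atf4, Impact, Mknk1, pseudogenes and overlapping genes were named after their values were seen.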

Additional observations from a re-analysis of the deposited data

How the results depend on the processing

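No called member changed sign in any alternative. In high glucose versus control, 33 of the 44 calls held in all 14 alternatives, and in AGEs versus high glucose 31 of 44. The FPKM scale moved the all-gene median in high glucose (log2) from 0.03 to 0.08 (limma, pseudocount 1) or 0.17 (pseudocount 0.1). With pseudocount 1, 5235 genes were called higher in high glucose and 2399 lower, against 3466 and 3480, and in AGEs versus high glucose 2314 higher and 5509 lower (5433 lower with pseudocount 0.1), against 3481 and 3572. Limma called 5 initiation factors higher in high glucose with either pseudocount and 2 lower in AGEs versus high glucose, against 2 and 0. Leaving out a library, 1 to 3 initiation factors were higher in high glucose (1 without control 2, control 3 or high glucose 2). For AGEs versus control, DESeq2 called 196 genes higher and 129 lower, among them 1 initiation factor lower, against 9 and 6; without a library 6 to 14 were higher (14 without AGEs 1) and 4 to 12 lower (12 without AGEs 3), and 0 to 1 initiation factor was higher (1 without control 1). Same-numbered libraries did not deviate together (correlations from -0.22 to 0.08; best match with the own number in 5 of 18), and with the replicate block 3 genes were higher and 2 lower for AGEs versus control, while 41 members were lower in high glucose. With TMM-scaled library sizes the initiation share was 1.40% in control, 1.02% in high glucose and 1.49% with AGEs, and the elongation share in high glucose was 0.977%. The cause of these shifts was not tested. The median standard error of a member's log2 fold change in high glucose was 0.09, and the 3 untested genes are limited by their counts.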
